A study of Mus musculus with 12 samples.

Results

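The m6A peaks of ovalbumin-challenged mouse lung are described here. They are all the peaks of a single list, made by the authors from 3 IP libraries (RNA fragments captured by an antibody against m6A) against 3 input libraries (fragments sequenced without pull-down) of the OVA group. The list holds 27292 peaks of the 53394 in the lists of both groups. The PBS list, with 26102 peaks, was used only for comparison. It showed whether an OVA peak had an overlapping peak in control lung and which genes had a PBS peak.

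The study compared m6A in the lungs of mice with allergic airway inflammation and of control mice. Both groups were female BALB/c mice of 6 to 8 weeks. OVA mice were injected with ovalbumin and aluminum hydroxide on days 0 and 7, then breathed 3% ovalbumin aerosol for 30 min a day from day 14 to day 20. PBS mice were given PBS by the same routes and on the same days. The paper's methods describe a methacholine provocation test under anaesthesia on day 21, after which blood, lavage fluid and lung were taken. Ribosome-depleted RNA of lung tissue gave 12 libraries, 3 IP and 3 input in each group. Each group's libraries were made into 1 list, so no value of a single mouse is known, no spread between mice can be given and no difference between the groups was tested.

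N6-methyladenosine is a methyl mark on adenosines inside messenger RNA, placed mainly by the METTL3 and METTL14 complex at short motifs around GGACT, often near stop codons and in long exons. Reader proteins of the YTH family bind it and steer the RNA toward decay, splicing or translation, and FTO and ALKBH5 can remove it. In immune cells it is known for tuning the lifetime of cytokine-signalling transcripts, among them the SOCS feedback inhibitors.

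A peak needs both methylation and enough RNA to be called. A gene without a peak may therefore be unmethylated or weakly expressed, and these cannot be told apart from the list. Lung tissue was sequenced, so fewer cells of a type and less RNA per cell cannot be told apart either. The caller did not use strand, and genes that overlap or lie antisense share their peaks. Of the OVA peaks, 2551 (9.35%) overlapped a peak called on another gene.

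The tissue label was checked on 7 defining genes, chosen for what they mark. Peaks lay on Scgb1a1 of club cells, Foxj1 of ciliated cells, Ager of alveolar type 1 cells, Pecam1 of endothelium, Col1a1 of fibroblasts and Ptprc of leukocytes. The highest of them was 2.9-fold on Scgb1a1, 15.2-fold on Foxj1, 1.59-fold on Ager, 2.13-fold on Pecam1, 11.9-fold on Col1a1 and 2.64-fold on Ptprc. Sftpc, the surfactant protein C of alveolar type 2 cells, had no peak in either list. A fold is a ratio to the gene's own input and gives no expression level.

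Most peaks on protein-coding genes were labelled as 3′ UTR. Of the 27292 peaks, 23924 (87.7%, 95% Wilson interval 87.3 to 88.0%) were called on protein-coding genes of RefSeq. By the authors' region labels, 14138 of these (59.1%) lay in 3′ UTRs, 6676 (27.9%) in other exons and 3110 (13%) in 5′ UTRs. A peak has 1 label even where it spans several exons. The annotation assigned 22.9% of all peaks to another gene than the called one, and a label may then belong to a neighbour, also for genes named here, such as Jun and Fbxl19. Among the 18509 peaks on protein-coding genes for which both genes were the same, 53.3% lay in 3′ UTRs, 30.8% in other exons and 15.9% in 5′ UTRs. Enrichment was strongest under the 3′ UTR label, with a median of 6.06-fold in 3′ UTRs, 5.31-fold in 5′ UTRs and 4.56-fold in other exons. Distance to a transcript end or stop codon was not computed. Peaks of at least 10-fold made up 33.2% of the 3′ UTR peaks, 26.9% of the 5′ UTR peaks and 22.6% of the exon peaks.

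The fold of a peak compares IP with input reads and comes from the authors' caller. Over all peaks its median was 5.59, the quartiles were 2.91 and 11.4, and the whole range ran from 1.14 to 1560. There were 8145 peaks (29.8%) of at least 10-fold and 2754 (10.1%) under 2-fold. An FDR under 0.05 was reached by 26783 peaks (98.1%). The exonic length of a peak had a median of 330 bp, and 6587 peaks (24.1%) crossed at least 1 splice junction, since they consist of more than 1 exonic block. Those of 2 blocks had a median fold of 6.87, against 5.23 for those within a single exon.

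Most OVA peaks had a counterpart in control lung. An overlap of at least 1 exonic bp with a PBS peak was found for 22009 OVA peaks (80.6%, interval 80.2 to 81.1%), and 5283 (19.4%) had none. Where an overlap of 50% of both peaks was asked for, 8579 had none. The paper, in a smaller set of mRNA peaks, counts most OVA peaks as unique to the group. The 1 bp rule used here is not taken from the paper, so the counts are not comparable. The peaks with an overlap had a median fold of 6.5, a median log10 p of -42.2 and a median length of 391 bp. Those without had 2.87, -4.2 and 122 bp, so they were weaker and shorter. Among peaks with a log10 p of -100 or below, 7539 of 7567 (99.6%) overlapped a PBS peak, and among those above -3, 761 of 2239 (34.0%) did. Of the 8145 peaks of at least 10-fold, 7390 (90.7%) overlapped a PBS peak. The absence of a PBS overlap was thus most frequent where the p of the call was weakest.

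Peaks were spread over 11540 of the 21900 protein-coding genes of RefSeq, which is 52.7% (interval 52.0 to 53.4%). A gene with a peak carried a median of 2 and a mean of 2.07. A single peak was found on 5087 genes (44.1%, interval 43.2 to 45.0%), 2 peaks on 3346 and 3 on 1692, 4 on 756 and 5 on 349, while 659 genes carried at least 5 and 39 at least 10. At least 1 peak in the 3′ UTR was present on 9742 genes (84.4%), in the 5′ UTR on 2746 (23.8%), and in both on 2038 (17.7%).

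Genes with more peaks had a higher maximum and a larger share of peaks in exons outside the UTRs. The highest peak of a gene had a median of 6.39-fold on genes with 1 peak, 10-fold with 2, 12.4-fold with 3, 14.7-fold with 5 to 9, and 19-fold with 10 or more. More peaks give more chances of a high maximum, and this was not separated from other reasons. The exon share was 15.3% with 1 peak, 29.3% with 3, 43.7% with 5 to 9 and 70.6% with 10 or more. The 10 genes with the most peaks were Ttn with 23, Dst with 18, Macf1 with 16, Ahnak2 with 15, Fat2 and Kmt2d with 14, and Apob, Fat1, Syne1 and Zfhx4 with 13. Most of them encode giant proteins: titin of the sarcomere, the cytoskeletal linkers dystonin and Macf1, the nuclear envelope protein nesprin-1 (Syne1), and the large cadherins Fat1 and Fat2. Length was not taken into account in these counts.

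The highest folds were far above the rest of the list. The largest on a protein-coding gene was 520 in the 3′ UTR of Dhx9, an RNA helicase, at chr1:153455847-153457612. Next came Zbed4 at 456-fold, Fam177a2 at 367-fold, 1810013L24Rik at 275-fold, Rrbp1, a ribosome-binding protein of the endoplasmic reticulum, at 198-fold, and Tnfsf11, the cytokine RANKL, at 196-fold. Aldh1b1, Kctd1, Fbxl19 and Smad7 followed at 182-fold, 174-fold, 165-fold and 162-fold. The lists give no read counts, and a large ratio may rest on few input reads.

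The most certain peaks, ranked by p, were on another set of genes. For 37 peaks the caller's p was too small to write, and all 37 overlapped a PBS peak. Ordered by fold, the 10 protein-coding genes that head them were Jun (97.4-fold), Trim25 (90.9-fold), Phf3 (78.7-fold), Arl4c (78.2-fold), Zfp865 (75.1-fold), Nod2 (66.3-fold), Zbtb22 (62.8-fold), Erg (62.6-fold), Trio (60.9-fold) and C1galt1 (60.6-fold). Jun is an immediate early transcription factor, Trim25 a ubiquitin ligase of antiviral RNA sensing, Nod2 a cytosolic sensor of bacterial peptidoglycan, and Erg a transcription factor of endothelium.

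Gene lists for the cells and pathways of an allergic lung were read against the shares over all protein-coding genes. The 34 lists hold 831 different genes, and 547 of them carried an OVA peak. The share with a peak ran from 97.5% of the immediate early and short-lived regulators to 7.14% of the erythroid and platelet markers. In the immune lists together, 240 of 347 genes (69.2%) had a peak, in the epithelial lists 86 of 116 (74.1%) and in the stromal lists 114 of 134 (85.1%), against 52.7% over all protein-coding genes. The median of the highest peak per gene was 9.86-fold for immune, 7.2-fold for epithelial and 9.19-fold for stromal genes, against 9.5-fold over all genes with a peak. Stromal peaks lay in 5′ UTRs in 24.1%, against 15.3% of the immune, 15.6% of the epithelial and 13% of all peaks. Epithelial peaks lay in exons outside the UTRs in 37.5%, against 27.9% of all, but without the club and goblet list in 28.1%. No PBS overlap was found for 11.7% of the immune, 3.49% of the epithelial and 5.26% of the stromal genes with a peak, against 9.35% of all. Genes were put on a list as known markers, and markers expressed in lung are more likely to be called than an average gene, which was not tested.

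Few of the type 2 cytokines that drive allergic inflammation had a peak, while most of their receptors did. Of 10 cytokines, by called gene, only Il33, the epithelial alarmin, had a peak, of 3.89-fold in its 3′ UTR at chr19:29958903-29959528, with a log10 p of -508. By the gene of the assigned transcript instead, 2 of the 10 had a peak. Il3, Il4, Il5, Il9, Il13 and Il25 had none in either list. Of the receptors, 15 of 18 (83.3%) carried a peak, against 52.7% of all protein-coding genes. The highest peak reached at least 10-fold on 9 of these 15 (60%), against 47.8% of all genes with a peak, and 9 had at least 2 peaks, against 55.9% of all.

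Of the receptor peaks, 20 of 30 (66.7%) lay in 3′ UTRs, against 59.1% of all. Il9r, the chain that binds interleukin 9, had 42.6-fold at chr11:32189638-32191018. Csf2rb2, the beta chain of the mouse interleukin 3 receptor, had 4 peaks with a maximum of 26-fold, Il5ra, the eosinophil growth receptor, had 21.8-fold, and Il13ra1 had 20.7-fold. Outside the rule for naming genes, and chosen after their values were seen, Il4ra, the shared chain of the interleukin 4 and 13 receptors, had 8.73-fold, and Il1rl1, the receptor of interleukin 33, had 4 peaks with a maximum of 12.3-fold. Csf2ra had 2 peaks, at most 3.73-fold, and was the only receptor without a peak overlapping the PBS list (1 of 15, 6.67%, against 9.35% of all genes with a peak). Counted by peaks, 20 of the 30 (66.7%) overlapped a PBS peak, against 82.2% of peaks on all protein-coding genes. Il13ra2, Crlf2 and Il3ra had no peak.

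The feedback arm of these receptors had high peaks as well. In the JAK-STAT list, 16 of 20 genes (80%) had a peak, with a median highest fold of 14.7 (all protein-coding genes: 52.7% and 9.5). Of the 16, 12 (75%) reached at least 10-fold, against 47.8% of all genes with a peak. The 4 highest peaks lay on SOCS family inhibitors. Socs6 had 26.6-fold, Cish 21.7-fold with a log10 p of -3730 at chr9:107300504-107301284, Socs5 20.7-fold and Socs4 19.3-fold. The peak on Cish also overlaps one called on Gm17041. Socs2 had the most peaks, 4, with a maximum of 13-fold. None of the 16 lacked a PBS overlap, as 9.35% of all genes with a peak did. Tyk2, Stat3, Stat5b and Ptpn6 had no peak, and Stat6, the transcription factor of interleukin 4 signalling, had 1 of 6.99-fold, which was looked up after the rule's genes were known.

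A peak was found on 12 of 32 chemokines (37.5%) and on 21 of 22 chemokine receptors (95.5%), against 52.7% of all protein-coding genes. The median highest fold was 4.33 for the chemokines and 13 for the receptors, against 9.5 over all genes with a peak. Among chemokines the membrane-bound Cx3cl1 had 5 peaks and the highest fold, 10.6. Cxcl12, the stromal chemokine that holds leukocytes in niches, had 9.12-fold. Ccl1, Ccl3, Ccl4, Ccl5, Ccl7 and Ccl12 had no peak. Among receptors, Cxcr2 of neutrophils had 48.8-fold at chr1:74160887-74161216, Ccr7 of migrating dendritic cells and T cells 24-fold, Ccr4 of Th2 cells 21.8-fold, and the scavenger Ackr2 20.7-fold. Ccr2 of monocytes had the most peaks, 5, with a maximum of 15.4-fold. Cxcr1 alone had no OVA peak, and the PBS list has 1 on it.

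For 6 of the 12 chemokines with a peak (50%, against 9.35% of all genes) no peak overlapped the PBS list. Ccl8, a monocyte and eosinophil attractant, had 3.32-fold at chr11:82115184-82116109 with a log10 p of -1290. The eosinophil chemokine Ccl24 had 5.17-fold, Ccl2 4.4-fold, Cxcl16 3.43-fold, Ccl25 2.82-fold and Ccl9 1.97-fold. The call on Ccl25 was weak, with a log10 p of -1.5. With an FDR under 0.05, 11 of the 12 chemokines kept a peak, and with a fold of at least 2, 10 did. The 3.43-fold peak of Cxcl16 also overlaps one called on its neighbour Zmynd15. All 6 had no PBS peak on the gene at all, which held for 8.38% of all protein-coding genes with an OVA peak. Whether these genes were unmethylated or too weakly expressed in control lung cannot be told apart from the peak lists, and expression in the input libraries was not analysed here.

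Of 20 T cell markers 18 (90%) had a peak, against 52.7% of all protein-coding genes. Their median highest fold was 6.48, against 9.5 over all genes with a peak. The highest were the costimulatory receptor Cd28 at 26.2-fold, the checkpoint receptor Pdcd1 at 16.7-fold, Cd5 at 15.9-fold and Cd8b1 at 14.5-fold. Cd3g (3.67-fold), Cd8a (2.82-fold) and Ctla4 (3 peaks, at most 1.91-fold) had no PBS overlap. These were 3 of 18 (16.7%), against 9.35% of all genes with a peak. Zap70 and Lat, which pass on the T cell receptor signal, had no peak. The transcription factors of T helper cells had peaks on 19 of 20 (95%), with a median of 12.5-fold (all protein-coding genes: 52.7% and 9.5-fold). Irf4, needed for Th2 and plasma cell differentiation, had 30.4-fold at chr13:30757497-30764316, and Maf had 6 peaks with a maximum of 23.5-fold. Eomes followed at 22.2-fold and Nfatc2 at 18.3-fold. The Th2 regulator Gata3 had 4 peaks with a maximum of 15.6-fold, named after its value was seen, and Foxp3 of regulatory T cells had none.

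B cell and plasma cell markers had peaks on 20 of 24 (83.3%), with a median of 10.4-fold (all protein-coding genes: 52.7% and 9.5-fold). The lineage factor Pax5 had 39.3-fold, with a p too small to write. Prdm1, which drives plasma cell differentiation, had 5 peaks with a maximum of 25.4-fold, the inhibitory lectin Cd22 had 22.3-fold, and Tnfrsf13c, the BAFF receptor, had 19-fold. No PBS overlap was found for 4 of 20 (20%), against 9.35% of all genes, among them Jchain (1.77-fold), the joining chain of IgA and IgM, Cr2 (3.89-fold) and Tnfrsf17 (3.79-fold), the plasma cell receptor BCMA. Cd79a, Fcrla and Mzb1 had no peak.

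Eosinophil markers had peaks on 5 of 12 (41.7%), mast cell and basophil markers on 5 of 15 (33.3%) and neutrophil markers on 8 of 18 (44.4%), against 52.7% of all protein-coding genes. These differences were not tested. In the eosinophil list Il5ra had 21.8-fold, Ccr3, the eotaxin receptor, 13-fold at chr9:124028714-124030589, and Cebpe, the factor of granule maturation, 9.33-fold with no PBS overlap. Ear6, an eosinophil ribonuclease, had 5.65-fold, also with no PBS overlap. The paper reports higher expression of Cebpe in OVA than in PBS lung, and whether this bears on the overlap was not tested. Epx, Prg2 and Prg3 of the granules, Siglecf and Alox15 had no peak in either list, and Ear1 had 1 in the PBS list only.

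Mast cell and neutrophil peaks stayed under 10-fold apart from Cxcr2 and Fpr1. In the mast cell list Gata2 had 9.38-fold, Mcpt4, a mast cell protease, 8.73-fold, the prostaglandin D2 synthase Hpgds 8.28-fold and Cd200r3 7.48-fold. Kit, the stem cell factor receptor, had 1.45-fold, and like Mcpt4 no PBS overlap. The high-affinity IgE receptor chains Fcer1a, Ms4a2 and Fcer1g had no peak, nor did Cpa3, Mcpt1 or Mcpt2. In the neutrophil list Cxcr2 was followed by the formyl peptide receptor Fpr1 at 17.1-fold, and Csf3r had 4.65-fold. Mmp9 (3.71-fold) and Retnlg (2.46-fold) had no PBS overlap. Of the 10 neutrophil markers with no OVA peak, 4 had a PBS peak, namely S100a8, S100a9, Fpr2 and Ngp, against 6.12% of all protein-coding genes without an OVA peak.

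Macrophage markers had peaks on 17 of 22 (77.3%), with a median of 6.78-fold (all protein-coding genes: 52.7% and 9.5-fold). Among the highest were Mertk, the receptor for apoptotic cells, at 17.6-fold, Csf1r at 15.6-fold and Spi1 at 14.4-fold. The 15.6-fold peak of Csf1r also overlaps one called on Hmgxb3. Cd163, the haemoglobin scavenger, had 6 peaks with a maximum of 11.6-fold. Trem2 had 2.45-fold and no PBS overlap, and Adgre1, Cd68, Marco, Fabp4 and Fabp5 had no peak.

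Genes of alternatively activated macrophages, the state induced by interleukins 4 and 13, had peaks on 12 of 20 (60%), against 52.7% of all protein-coding genes. Their median was 7.7-fold, against 9.5-fold over all genes with a peak. Irf4 (30.4-fold) is on this list too, and Klf4 had 25.3-fold. Ocstamp, which takes part in macrophage fusion, had 21.4-fold at chr2:165394149-165396187 with a log10 p of -797 and no PBS overlap. Pdcd1lg2, the ligand PD-L2, had 10.4-fold and Dcstamp 3 peaks, at most 6-fold. Ccl24 (5.17-fold) also had no PBS overlap. The secreted effectors Retnla, Chil4 and Ccl17 had no peak, nor had Clec10a or Spp1, and Chil3 had a peak in the PBS list only. These absences hold for the list of each group, and the study's separate calls between the groups do place a peak on Spp1.

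Dendritic cell and antigen presentation genes had peaks on 15 of 20 (75%), with a median of 14.8-fold (all protein-coding genes: 52.7% and 9.5-fold). The growth factor receptor Flt3 had 34.9-fold, Ccr7 24-fold, Zbtb46, the factor of classical dendritic cells, 4 peaks with a maximum of 22.3-fold, and Xcr1 19.5-fold. Ciita, the master regulator of MHC class II, had 5 peaks with a maximum of 15.4-fold at chr16:10509392-10512503. Among class II genes, Cd74 had 2.9-fold, H2-Eb1 had 1.45-fold, both with no PBS overlap, and H2-Aa and H2-Ab1 had no peak. Cd80, a costimulatory ligand, had 14.9-fold and Siglech 4.28-fold, also with no PBS overlap. Genes of this kind were 4 of 15 (26.7%), against 9.35% of all genes with a peak.

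Of the Toll-like receptor and NF-kB genes 33 of 38 (86.8%) had a peak, with a median of 12-fold (all protein-coding genes: 52.7% and 9.5-fold). Of their 60 peaks 57 (95%) overlapped a PBS peak, against 82.2% of peaks on all protein-coding genes. Tlr9, a sensor of DNA, had 4 peaks with a maximum of 41.3-fold, Tlr13, a sensor of bacterial ribosomal RNA, 33.9-fold, Tlr2 33.7-fold, and Tlr4, the receptor of lipopolysaccharide, 28.9-fold at chr4:66839231-66842040. Tlr12, a receptor that is not on the list and was noticed afterwards, had 111-fold at chr4:128615502-128615862. Tlr5, the flagellin receptor, had 4 peaks with a maximum of 15-fold. Chuk had 2.6-fold with no PBS overlap, and Ly96, Myd88, Relb, Nfkbib and Nfkbid had no peak.

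The interferon pathway had peaks on 27 of 32 genes (84.4%), with a median of 7.44-fold (all protein-coding genes: 52.7% and 9.5-fold). Eif2ak2, the kinase PKR, had 46.7-fold at chr17:78852563-78854926, Stat2 37.7-fold, the nucleic acid sensor Zbp1 35.9-fold and Ifit3 18.3-fold. Cgas, the sensor of cytosolic DNA, had 4 peaks with a maximum of 18-fold. Irf1, Irf7, Oas1a, Oas2 and Usp18 had no peak. NK cell and innate lymphoid cell markers had peaks on 7 of 16 (43.8%), against 52.7% of all protein-coding genes. S1pr5 had 21.6-fold, Klrk1 18.6-fold, the pore-forming Prf1 18.2-fold and Il18r1 10.3-fold, while the effectors Gzma, Nkg7 and Areg and the receptors Klrb1c, Klrd1 and Klrg1 had no peak.

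Alveolar type 2 markers had peaks on 14 of 18 (77.8%), but with a median of 4.4-fold (all protein-coding genes: 52.7% and 9.5-fold). Only Cebpa, a factor of lipid metabolism and maturation, passed 10-fold, with 42-fold at chr7:35120220-35120940. The lung identity factor Nkx2-1 had 5 peaks with a maximum of 9.18-fold, Etv5 8.65-fold and Muc1 7.86-fold. Sftpb, the surfactant protein B, had 4-fold and was chosen after its value was seen. Sftpc, Scd1, Lyz1 and Cxcl15 had no peak. Egfl6 had 2.38-fold and no PBS overlap.

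Alveolar type 1 markers had peaks on 14 of 16 (87.5%), with a median of 7.19-fold (all protein-coding genes: 52.7% and 9.5-fold). Akap5 had 17.7-fold, Gprc5a 14.5-fold, the basement membrane collagen Col4a4 13.4-fold and Vegfa, the endothelial growth factor, 4 peaks with a maximum of 13.2-fold. Lmo7 had the most peaks, 5. Igfbp2 had no peak, and Cav2 had 1 in the PBS list only.

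Club and goblet cell markers had peaks on 15 of 24 (62.5%), against 52.7% of all protein-coding genes. Of their 46 peaks 31 (67.4%) lay in exons outside the UTRs, against 27.9% of all. Muc16 had 9 peaks with a maximum of 9.97-fold. Muc5b, also with 9, reached 7.33-fold, and Muc5ac, the mucin of goblet cell metaplasia, had 3 with a maximum of 10-fold, both chosen after their values were seen. Of the 3 peaks on Muc5ac, 1 overlapped a PBS peak. The forkhead factors that govern the airway lineage had 1 or 2 peaks, with 39.3-fold on Foxa1 at chr12:57541885-57543325, 27.7-fold on Foxa3 and 23.5-fold on Foxa2.

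Of the 15 members with a peak 8 (53.3%) reached at least 10-fold, against 47.8% of all genes with a peak. Aldh1a1 was among the 8, with 23.1-fold. The goblet cell factor Spdef (22.5-fold), the IgA transporter Pigr (17.6-fold) and Fcgbp (7 peaks, at most 16-fold) were also among the 8. These last genes were named after their values were seen. Clca1, a goblet cell protein of allergic airways, had 3.55-fold at chr3:145004146-145004866 with a log10 p of -999 and no PBS peak. Cyp2f2, a club cell enzyme, had 1.93-fold, also with none. Scgb3a1, Scgb3a2, Agr2, Bpifa1, Tff2 and Itln1 had no peak in either list.

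Ciliated cell markers had peaks on 21 of 26 (80.8%), with a median of 7.19-fold (all protein-coding genes: 52.7% and 9.5-fold). Hydin, a protein of the axoneme's central apparatus, had 17.7-fold, Foxj1, the master regulator of motile cilia, 15.2-fold, Sntn 14.9-fold and Cfap44 14.7-fold. Myb, Dnaic1, Rsph1 and Cfap43 had no OVA peak, and Spag6l had 1 in the PBS list only. Basal cell and epithelial junction genes had peaks on 22 of 32 (68.8%), with a median of 8.67-fold (all protein-coding genes: 52.7% and 9.5-fold). The epithelial factor Grhl2 had 30.7-fold, the desmosome protein Dsp 9 peaks with a maximum of 23.9-fold, the tight junction protein Cldn4 19.6-fold and the splicing factor Esrp2 17.6-fold. The peak on Esrp2 also overlaps one called on Nfatc3. The basal cell genes Trp63, Krt5, Krt14, Krt15 and Krt17 had no peak, nor had Krt18.

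Fibroblast markers had peaks on 22 of 25 (88%), with a median of 7.33-fold (all protein-coding genes: 52.7% and 9.5-fold). Of their 40 peaks 13 (32.5%) lay in 5′ UTRs, against 13% of all. Pdgfrb, a growth factor receptor of mesenchyme, had 42.1-fold, Fgf10, the lung bud growth factor, 3 peaks with a maximum of 40.9-fold, Wnt5a 23.3-fold in its 5′ UTR at chr14:28504959-28505889, and Meox2 23-fold. Vim (4.36-fold) and S100a4 (2.41-fold) had no PBS overlap, and the peak on S100a4 overlaps one called on Gm42674. Col14a1, Dcn and Twist2 had no peak.

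Airway remodelling and TGF-beta genes had peaks on 33 of 38 (86.8%), with a median of 11-fold (all protein-coding genes: 52.7% and 9.5-fold). Of their 85 peaks 26 (30.6%) lay in 5′ UTRs, against 13% of all. The inhibitory Smad7 was highest, with 4 peaks and 162-fold in its 5′ UTR at chr18:75368785-75369475, and the related Smad6 had 23.4-fold, also in the 5′ UTR. The ligand Tgfb3 had 64.3-fold and the microfibril protein Fbn2 34.9-fold. The peak on Tgfb3 also overlaps one called on Gm48008. The proteoglycan Vcan had 10 peaks with a maximum of 17.8-fold. Mmp12, the macrophage elastase, had 6.03-fold at chr9:7344410-7347407 and no PBS peak. Postn, the matrix protein periostin, had 1.88-fold and was chosen after its value was seen. This value is from the OVA list alone. In the study's separate calls between the groups, Postn heads the hypermethylated mRNAs by fold change. Fn1, Eln, Mmp3, Timp1 and Ltbp4 had no peak.

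Smooth muscle and pericyte markers had peaks on 21 of 25 (84%), with a median of 7.85-fold (all protein-coding genes: 52.7% and 9.5-fold). Of their peaks 14.8% lay in 5′ UTRs, against 13% of all. The muscarinic acetylcholine receptors, among them the bronchoconstrictor Chrm3, had the highest, with 43.6-fold on Chrm1, 34.2-fold on Chrm2 and 29.6-fold among 5 peaks on Chrm3. Kcnj8, a potassium channel of pericytes, had 25.2-fold. Of the contractile genes, Tagln had 1.27-fold and Smtn 1.61-fold, both with no PBS overlap, and the peak on Tagln overlaps one called on Gm48529. Acta2 and Actg2 had no peak. Abcc9, a channel subunit of pericytes, had none either. Cnn1 had 1 peak in the PBS list only. Rgs5 had 3 peaks, at most 2.7-fold, with no PBS overlap.

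Endothelial markers had peaks on 34 of 36 (94.4%), with a median of 9.51-fold (all protein-coding genes: 52.7% and 9.5-fold). Of their 73 peaks 70 (95.9%) overlapped a PBS peak, against 82.2% of peaks on all protein-coding genes. Erg had 62.6-fold at chr16:95359676-95361200, Ets1 38.8-fold, the flow-responsive Klf2 29.5-fold and Eng, a TGF-beta co-receptor, 26.6-fold with a log10 p of -6900. Flt1, a VEGF receptor, had the most peaks, 5, with a maximum of 8.7-fold. Emcn and Sele had no peak. Mesothelial markers had peaks on 4 of 10 (40%, against 52.7%), led by Bnc1 with 5 peaks and 48.8-fold and Lrrn4 with 31.5-fold. Rspo1 had 5.68-fold and Cldn15 3.71-fold. Msln, Upk3b and Gpm6a had a PBS peak only, and Wt1, Upk1b and Aldh1a2 had none in either list.

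Markers of other tissues were examined as well. Of 18 heart and skeletal muscle markers 4 (22.2%) had an OVA peak, against 52.7% of all protein-coding genes. These were Ttn with a maximum of 22.6-fold, Myom1 with 13.9-fold, and Hrc and Ryr2 with 10.8-fold. Of the other 14, 7 had a PBS peak, namely Myh6, Myh7, Tnnt2, Tcap, Pln, Sln and Xirp2, whereas 634 of the 10360 protein-coding genes without an OVA peak (6.12%) did. Ttn itself had 23 OVA and 40 PBS peaks. These genes were counted by list and not by mouse, and their part in other differences between the lists was not tested.

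Nerve and glial markers had peaks on 4 of 14 (28.6%), against 52.7% of all protein-coding genes. Tubb3 had 5.99-fold and S100b 3.23-fold, both with no PBS overlap, while Sox10, Snap25, Th and Elavl4 had no peak and Gfap only a PBS peak. Erythroid and platelet markers had peaks on 1 of 14 (7.14%, against 52.7%), or on 3 by the gene of the assigned transcript. The called gene was Gp1ba, a platelet receptor, with 3 peaks, at most 4.11-fold, and no PBS overlap. The globins Hba-a2, Hbb-bs and Hbb-bt and the haem enzyme Alas2 had no OVA peak, and Hba-a1 had 1 in the PBS list.

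Genes of the m6A machinery were also read as a list. Of 25 writers, erasers and readers, 21 (84%) had a peak, against 52.7% of all protein-coding genes. Their median was 10.4-fold, against 9.5-fold over all genes with a peak. Prrc2a, a reader, had 5 peaks with 59-fold in an exon at chr17:35156306-35156996, the writer subunit Rbm15b had 23.8-fold, the reader Ythdf3 21.3-fold and the eraser Alkbh5 5 peaks with a maximum of 21-fold. Zc3h13, a writer subunit, had the most, 6, with a maximum of 18.5-fold. The catalytic Mettl3 had no peak, and its partner Mettl14 had 2.34-fold with no PBS overlap. Igf2bp2 (3.23-fold) and Fxr1 (1.32-fold) also had no PBS overlap. Ythdc2, Igf2bp1 and Igf2bp3 had no peak.

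Of the immediate early and short-lived regulators 39 of 40 (97.5%) had a peak, with a median of 12.9-fold (all protein-coding genes: 52.7% and 9.5-fold). Only Fosl1 had none. Jun had 97.4-fold at chr4:95049659-95050494, Myc 75.5-fold, the RNA decay factor Zfp36l2 69.3-fold and Cebpb 43-fold, each labelled as 3′ UTR. The annotation assigned the Jun peak to another gene, Gm12703. The peak on Zfp36l2 also overlaps one called on AC132455.1. Egr3 had 8 peaks with a maximum of 12.3-fold. None of the 39 lacked a PBS overlap, against 9.35% of all genes with a peak.

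The cytosolic ribosomal protein genes, among the most abundant mRNAs of any cell, had peaks on 18 of 77 (23.4%), against 52.7% of all protein-coding genes. None of them reached 10-fold, and the median was 2.33-fold, against 9.5-fold over all genes with a peak. Peaks of at least 2-fold lay on 10. Among the highest were Rpl13a at 4.44-fold, Rpl19 at 3.34-fold and Rpl41 at 2.97-fold. Nuclear-encoded respiratory chain genes had peaks on 21 of 49 (42.9%), with a median of 2.73-fold (all protein-coding genes: 52.7% and 9.5-fold). Only Ndufs4, with 19.4-fold, reached 10-fold, followed by Cycs at 7.7-fold, Sdhd at 5.47-fold and Ndufa8 at 5.39-fold. Among ribosomal genes 6 of 18 (33.3%) and among respiratory chain genes 9 of 21 (42.9%) had no PBS overlap, against 9.35% of all.

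GO annotation, as text in the list, extends this to other functions. It covers 9892 of the 11540 protein-coding genes with a peak, in 846 terms of at least 30 genes, and a gene may be in many terms. The broadest terms were protein binding (3929 genes), cytoplasm (3752), membrane (3737), nucleus (3574) and integral component of membrane (2568), with medians of the highest fold between 8.43 and 10.2. The terms with the highest median fold were cell fate commitment (44 genes, 17.9-fold), somatic stem cell population maintenance (30 genes, 17.7-fold), homophilic cell adhesion via plasma membrane adhesion molecules (98 genes, 16.7-fold), integral component of presynaptic membrane and social behavior (34 genes and 16.2-fold each). At the low end were myelin sheath (88 genes, 3.38-fold), catalytic step 2 spliceosome (3.76-fold), mRNA transport (4.25-fold), structural constituent of ribosome (4.37-fold) and cortical actin cytoskeleton (4.41-fold).

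By peaks per gene, heart morphogenesis, cytoplasmic microtubule organization, homophilic adhesion and circadian regulation of gene expression were at the upper end, each with a median of 3 and with means of 3.56, 3.5, 3.38 and 3.1. In homophilic adhesion, the work of cadherins and protocadherins, 25.7% of the peaks lay in 3′ UTRs. The fewest peaks per gene were found for ribosome, structural constituent of ribosome, mitochondrial large ribosomal subunit, mitochondrial inner membrane and ribosome biogenesis. Each had a median of 1, as had other terms, and ties were ordered by the mean. Genes with no PBS overlap were most frequent in negative regulation of peptidase activity and peptidase inhibitor activity (12 of 32 genes, 37.5%, against 9.35% of all protein-coding genes with a peak), nucleosome (11 of 31, 35.5%), negative regulation of endopeptidase activity (28.3%) and serine-type endopeptidase inhibitor activity (28.1%). In 22 terms every gene had an overlap, the largest being ubiquitin ligase complex with 70 genes.

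Terms chosen for their names show how immune and structural functions compare. DNA-binding transcription factor activity had a median of 13.7-fold over 458 genes, and G protein-coupled receptor activity 14.4-fold over 195. Inflammatory response had 12.1-fold over 198 genes, cytokine receptor activity 13-fold over 30 and cytokine activity 11.5-fold over 82. Chemokine activity, with 14 genes, had 4.33-fold, and 7 of the 14 had no PBS overlap. Adaptive immune response had 7.93-fold over 90 genes, with 18 (20%) lacking a PBS overlap, and innate immune response 9.26-fold over 239, with 27 (11.3%), against 9.5-fold and 9.35% of all genes with a peak. Lung development had 12.3-fold over 69 genes, angiogenesis 11.2-fold over 176, extracellular matrix 11.1-fold over 132 and cilium 7.79-fold over 193. Chemokine activity thus had the lowest median of these terms and the largest share without a PBS overlap.

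KEGG text covered 3859 genes, in 188 pathways of at least 30. The highest median folds were those of Neuroactive ligand-receptor interaction (111 genes, 15.2-fold), Herpes simplex virus 1 infection (294 genes, 13.9-fold), Signaling pathways regulating pluripotency of stem cells (89 genes, 13.6-fold), Jak-STAT signaling pathway (80 genes, 13.4-fold) and Breast cancer (109 genes, 13.2-fold). The lowest were Oxidative phosphorylation (36 genes, 3.1-fold), Ribosome (39 genes, 3.19-fold), Parkinson disease (49 genes, 3.64-fold), Huntington disease (4.61-fold) and Spliceosome (4.78-fold). The 2 neurodegeneration pathways contain many respiratory chain genes. No PBS overlap, found for 9.35% of all protein-coding genes with a peak, was seen for 1 gene of 80 (1.25%) in the Jak-STAT pathway. It was seen for 17 of 49 (34.7%) in Parkinson disease, 12 of 36 (33.3%) in Oxidative phosphorylation, 14 of 44 (31.8%) in Systemic lupus erythematosus, 8 of 30 (26.7%) in Arachidonic acid metabolism and 8 of 35 (22.9%) in Olfactory transduction. Every gene had an overlap in Adherens junction (52 genes) and Lysine degradation (42 genes).

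The pathways with the most genes were Pathways in cancer (340), Herpes simplex virus 1 infection (294), Human papillomavirus infection (215), PI3K-Akt signaling pathway (203) and MAPK signaling pathway (185), with medians from 8.5-fold to 13.9-fold. Ordered by the mean where medians were equal, peaks per gene were most in Lysine degradation, which holds many histone methyltransferases, with a mean of 3.33. Hypertrophic cardiomyopathy (2.66), Dilated cardiomyopathy (2.64), Protein digestion and absorption (2.6) and Fanconi anemia pathway (2.59) came next. They were fewest in Oxidative phosphorylation (1.19), Ribosome (1.26), Parkinson disease (1.41), Peroxisome (1.5) and Systemic lupus erythematosus (1.52), the last of which holds many histone genes.

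Pathways of allergy, chosen by name, had medians between 4.38 and 12.9. Cytokine-cytokine receptor interaction had a median of 12.2-fold over 135 genes and TGF-beta signaling pathway 12.9-fold over 63. NF-kappa B signaling pathway had 10.4-fold over 63 genes, Th1 and Th2 cell differentiation 8.93-fold over 56 and Fc epsilon RI signaling pathway 8.43-fold over 36. The Asthma pathway had 8 genes with a peak, with a median of 4.38-fold. The pathway named for the disease thus had the lowest median of these 6, on few genes.

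Genes with an OVA peak and no PBS peak had mostly weak peaks, with a few very certain ones. The 967 protein-coding genes of this kind had a median highest fold of 3.29 and a median lowest log10 p of -5.22. Genes with a PBS peak had 10.1 and -107. Of the 967, 785 (81.2%) had 1 OVA peak, against 44.1% of all protein-coding genes with a peak. Among the lowest log10 p were those of Ccl8 (-1290), Clca1 (-999), Ocstamp (-797) and Cd74 (-551), all of them members of the immune and airway lists above. Others further down, such as Msx3 (-238), Wfdc17 (-206) and H2az1 (-149), are not named in the lists above. The paper reports higher expression of Msx3 in OVA than in PBS lung. This order and these genes were taken after the values were seen. At least 10-fold was reached by 188 of the 967, against 5520 of all 11540 protein-coding genes with a peak (47.8%).

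Transcript starts were read for the motif GGACT, the commonest core of m6A sites, because 5′ UTR peaks may hold marked adenosines or the methylated cap-adjacent base. Sequences were those of RefSeq on GRCm38.p6, read on the transcript's strand only, over the first 50 bases. GGACT was present at 54 of 724 starts that lay inside an OVA peak called on the gene (7.46%), at 580 of 11018 starts of genes with a peak but outside their peaks (5.26%) and at 1247 of all 21263 starts (5.86%). The first base was A at 36.2%, 29.8% and 37.4% of them. A match is a description and not a site, and the difference was not tested.

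A few starts are shown to place the motif within a 5′ UTR peak: Jun and Dusp1 as immediate early regulators, and Ptch1, the hedgehog receptor, and the potassium channel gene Kcnk12 as those with the highest peaks among the matches. They were chosen after their values were seen, and capitals mark GGACT. The peak was 9.32-fold on Jun, 10.2-fold on Dusp1, 92.4-fold on Ptch1 and 91.1-fold on Kcnk12. Each fold is of the whole peak and not of the start alone. The peak spans chr17:26508148-26552053 on Dusp1 and chr13:63565641-63573238 on Ptch1. All lie on the minus strand of GRCm38, Jun at chr4:95052190-95052210, Dusp1 at chr17:26508454-26508474, Ptch1 at chr13:63565705-63565725 and Kcnk12 at chr17:87797948-87797968.
Jun: ctggataaGGACTcagagttg
Dusp1: gcagtgaaGGACTggcgggag
Ptch1: agacctcgGGACTcacgcgca
Kcnk12: gaggaacaGGACTgctcgcac

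Peaks also covered microRNA hairpins within messenger RNAs. Of 1005 hairpins in RefSeq, 18 lay wholly inside an OVA peak, 14 of them inside a peak called on a protein-coding gene. Mir7676-1 lay in the 26-fold 3′ UTR peak of Csf2rb2, on the minus strand, and Mir7676-2, which gives the same mature sequences, in a 3.78-fold exon peak of its paralogue Csf2rb, on the plus strand. Mir8115 lay in the 29.1-fold 3′ UTR peak of P2rx7, the receptor for extracellular ATP. Mature microRNAs were not measured. The sequences, from RefSeq on GRCm38.p6 and chosen because their host genes take part in inflammation, have the seed, bases 2 to 8, in capitals.
miR-7676-3p: uCCGGUGCucacucugcccaca
miR-7676-5p: aGGGCAGUaugauggccucugau
miR-8115: cCGCAAUAgcaacaagggcucu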

How the data were processed

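The authors removed adapters and low-quality bases with FASTP, mapped reads with HISAT2 to the Ensembl mouse genome, found peaks with exomePeak and used ChIPseeker for annotation, giving 1 peak list per group. How the 3 replicates were combined is not stated. The authors' score for each peak is a log10 value, of p or of FDR, as deposited. Their fold, also deposited, is a ratio between IP and input. Other deposited columns give widths in bp and block numbers. The lists hold no read counts per peak, so the depth behind a fold is unknown.

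A peak belongs to the gene on which it was called. Of peaks on protein-coding genes, 97.7% overlapped that gene's RefSeq position on GRCm38. Overlap with a PBS peak means at least 1 shared exonic bp. Intervals of shares are Wilson's at 95% and take in counting error alone. Lists were described by counts and medians beside all protein-coding genes, and no set test was made.

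Named genes are, in each list, the 4 members with the highest fold at an FDR under 0.05, the one with the most peaks, up to 6 without a PBS overlap by p and up to 6 without an OVA peak. Over all protein-coding genes they are the 10 with the most peaks, the highest fold and the lowest p. Named terms are the 5 at each end of each measure. Other genes and terms were chosen after their values were seen, and such terms for their names. Some genes and terms that the rule names are not reported here. Members and lists were chosen with earlier results of these data known.

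Alternatives were an FDR under 0.05, a fold of at least 2, the gene of the assigned transcript, overlap of 50% or of spans, and, chosen after seeing the data, peaks that overlap no peak of another gene. The tools were pandas 2.3.3, scipy 1.17.1, numpy 2.4.6 and Python 3.11.15, and the code was tested on simulated data.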

Additional observations from a re-analysis of the deposited data

How the results depend on the processing

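Of 152 values of 40 results under alternative settings, 145 stayed within the limits set for them and 7 did not. With peaks of at least 2-fold, 48.2% of genes had 1 peak, the median fold was 6.46 and ribosomal protein genes with a peak numbered 10. With an FDR under 0.05 the median fold was 5.66. With an overlap of 50% of both peaks, 8579 OVA peaks had no PBS overlap. By the gene of the assigned transcript, 2 type 2 cytokines and 3 erythroid and platelet markers had a peak. The filters remove weak peaks by construction, and the cause of the other shifts was not tested. All 35 values from peaks that overlap no peak of another gene, chosen after seeing the data, stayed within the limits. No paired analysis was possible because the lists hold no values of single mice, though labels share replicate numbers, and leaving out a replicate could not be run for the same reason. GGACT was read only over the first 50 bases of transcripts, and motifs over whole peaks were not analysed. Read depth limits which weakly expressed genes could be called.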

Other observations

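Apob, the apolipoprotein of very low density lipoprotein, was the only one of the 39 genes with at least 10 peaks that had no PBS peak. Its 13 peaks ran from chr12:8005912 to 8016116, 12 of them in exons outside the UTRs, with folds between 2.77 and 18.5, and all 13 passed an FDR of 0.05. A list of 24 genes expressed mainly in liver, written after Apob was seen, had peaks on 6 (25%), against 52.7% of all protein-coding genes. These were Apob, Fga, Hp, Serpina1b, Serpina3k and Serpina3m, and 5 of the 6, Apob included, had no PBS overlap, against 9.35% of all protein-coding genes with an OVA peak. The other 18, with albumin (Alb) and Apoa1 among them, had no OVA peak.

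Outside protein-coding genes, 1206 peaks lay on 768 long noncoding RNA genes, with a median fold of 6.84. Variable segments of immunoglobulin and T cell receptor genes carried 51 peaks on 46 segments, with a median fold of 3.39. Of these 51 peaks 17 (33.3%) overlapped a PBS peak, against 80.6% of all OVA peaks. The pseudogene Zxda had the highest folds of the whole list, 1560 and 1290, on 2 neighbouring peaks.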
